A study of Mus musculus with 4 samples.

Results

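General capillary endothelial cells of mouse lung tumors were described here from single-cell RNA-seq of viable cells. They were selected on measured counts of unique molecular identifiers (UMIs), each of which stands for 1 captured transcript. A member had at least 200 detected genes and at most 13.4% of its UMIs in mitochondrial genes. It had at least 4 UMIs over Cdh5, Cldn5, Ramp2 and Egfl7, which are junction, receptor-partner and secreted genes shared by endothelial cells. It also had at least 1 UMI of Gpihbp1, at most 1 over the aerocyte genes Car4 and Ednrb, none of Vwf, a clotting factor gene of larger vessels, and none of Ptprc, the pan-leukocyte CD45 gene. Of 19892 cells that passed the gene and mitochondrial limits, 858 were members, or 4.31% (95% interval 4.04 to 4.60). The deposited matrix held 20351 cells in all.

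Lung capillaries hold an intermingled pair of endothelial cell types. Aerocytes are large, thin cells next to the alveolar air space and are specialised for gas exchange, while general capillary cells regulate vascular tone and serve as the progenitors from which the capillary bed is maintained and repaired. GPIHBP1, which gives general capillary cells their best known marker, carries lipoprotein lipase across the capillary cell and anchors it on the luminal wall, where lipoproteins are processed.

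The tumors were started by Lenti-Cre given through the trachea and grew for 16 weeks. All 4 mice carried Lkb1XTR/XTR, together with Rosa26LSL-tdTomato/FLPo-ERT2 in the 2 Restored mice and Rosa26LSL-tdTomato in the 2 Non-Restored mice. All were female and received 4 mg doses of tamoxifen over the last 2 weeks. In all mice, Cre switched on tdTomato and trapped Lkb1 (gene symbol Stk11) in the cells it reached. FLPo-ERT2 with tamoxifen then restored Lkb1 in the Restored mice only. The members were not shown to be cells that Cre reached, since their tdTomato share is read as background below. The study reported higher Lkb1 in every cell compartment after restoration, which it put down to loss of the gene trap. Mice were pooled in 1 matrix of 58624795 UMIs with no map from cells to mice, so the matrix counts as 1 sample. Restored and Non-Restored cells were therefore not compared, no p-value is given, and unequal shares of the mice in a gate cannot be told apart from a difference between gates. Levels are UMIs summed over a gate and scaled to a gate total of 1000000 (CPM), each ratio is the log2 of 2 such levels, and the 95% intervals after them cover counting error only.

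Members were set against 3 other endothelial gates on the same 4-gene sum without Ptprc: 202 aerocyte-like cells with at least 2 UMIs over Car4 and Ednrb, 460 Vwf-positive cells, and 178 undetermined cells with neither Gpihbp1, Vwf nor 2 Car4 and Ednrb UMIs. General capillary cells made up 50.5% (48.1 to 52.9) of these 1698 endothelial cells. All other cells, 18071 with a 4-gene sum of at most 3, formed the outer comparison, and 123 cells with the endothelial sum and Ptprc were left out. A member had a median of 1836 UMIs (range 506 to 15226) and 995 genes, against medians of 2145 UMIs in aerocyte-like cells, 2214 in Vwf-positive cells and 1998 in all other cells. Over the 1730627 UMIs of the members, 1 UMI equals 0.578 CPM and 3 UMIs, taken as the floor, 1.73 CPM. A gene with 0 UMIs may reach 2.13 CPM by its exact 95% interval. To compare shares of cells, each cell was first thinned to 1000 UMIs, a depth that 790 of 858 members (92.1%) reached.

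Gpihbp1 lies on mm10 chromosome 15 from 75596628 to 75599481 on the plus strand, Cxcl12 on chromosome 6 from 117168535 to 117181367 on the plus strand, Edn1 on chromosome 13 from 42301476 to 42307990 on the plus strand, and Igfbp7 on chromosome 5 from 77349240 to 77408041 on the minus strand, by GENCODE vM21. All are protein-coding genes. Cxcl12 and Edn1 encode secreted factors that stood higher in general capillary than in aerocyte-like cells in the results that follow, so the 250 bases before their RefSeq starts are shown (GRCm38.p6, plus strand, Cxcl12 at chr6:117168285-117168534 and Edn1 at chr13:42301226-42301475), with the ETS core GGAAG in capitals on the printed strand. ETS factors such as ERG and FLI1 are the best known regulators of endothelial genes.
Cxcl12: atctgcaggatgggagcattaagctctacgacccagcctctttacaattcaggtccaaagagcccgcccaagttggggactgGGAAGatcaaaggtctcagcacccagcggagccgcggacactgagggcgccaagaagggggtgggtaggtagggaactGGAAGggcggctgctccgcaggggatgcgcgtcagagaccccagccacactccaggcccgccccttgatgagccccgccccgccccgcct
Edn1: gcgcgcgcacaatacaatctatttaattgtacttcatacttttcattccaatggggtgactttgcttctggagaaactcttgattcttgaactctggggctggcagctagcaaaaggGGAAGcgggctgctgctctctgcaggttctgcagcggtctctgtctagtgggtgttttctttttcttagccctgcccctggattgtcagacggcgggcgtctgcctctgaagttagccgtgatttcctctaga
The printed windows hold 2 and 1 matches. On either strand GGAAG was found in 71.4% of 32851 windows of this length over all genes, so its presence marks nothing particular to these genes. It was found in 4 of 6 windows of the general capillary genes below, 11 of 12 of the pan-endothelial genes and 12 of 12 of the aerocyte genes. These windows cover 5 of 10, 12 of 20 and 9 of 10 genes of the lists. Some genes have more than 1 window, and those of Kit overlap and hold the same match. CACCC, the core bound by KLF factors, was found in 57.5% of all windows, in 5 of 6, in 11 of 12 and in 8 of 12 of those lists. ACAAT, the core bound by SOX factors, was found in 31.0% of all windows and in 1 of 6, 7 of 12 and 0 of 12. A match is a description of letters only.

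The gate held endothelial cells by markers that its rule did not use. Of 20 pan-endothelial genes, a member had a median of 11 with a UMI (range 2 to 20), and 856 of 858 members had at least 3. Their summed level was 11010 CPM (10855 to 11168), close to the 12015 CPM of aerocyte-like cells and the 11052 CPM of Vwf-positive cells and far above the 250.2 CPM of all other cells. Emcn, which encodes the endothelial sialomucin endomucin, had 541 CPM and was seen in 39.6% of thinned members (56.9% unthinned), while it was seen in 0% of thinned B cells, with an exact upper limit of 0.449%. B cells gauge free RNA in the droplets here, and 819 of the 878 B cells, which had a median of 1629 UMIs, reached the thinned depth.

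The general capillary identity was checked on 10 genes that the rule did not use. Cxcl12, Ptprb, Tmem100, Cd93, Sema3c, Plvap, Kit and Aplnr were present, from 2821 CPM for Cxcl12 down to 93.0 CPM for Aplnr, whereas Glp1r had 12 UMIs (6.93 CPM) and Slc6a4, which encodes the serotonin transporter, had 0 UMIs. Kit, the stem cell factor receptor, was seen in 25.1% of thinned members, 15.2% of aerocyte-like cells, 15.7% of Vwf-positive cells and 0% of B cells (exact upper limit 0.449%). The share was 0.120% in thinned T cells and 0.912% in thinned neutrophils. These genes together did not single out the gate within the endothelium, since they summed to 6579 CPM in members, 6303 CPM in Vwf-positive cells and 7096 CPM in undetermined cells. The name therefore rests on the rule, with the markers present but not particular to the gate.

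**Figure D1:**
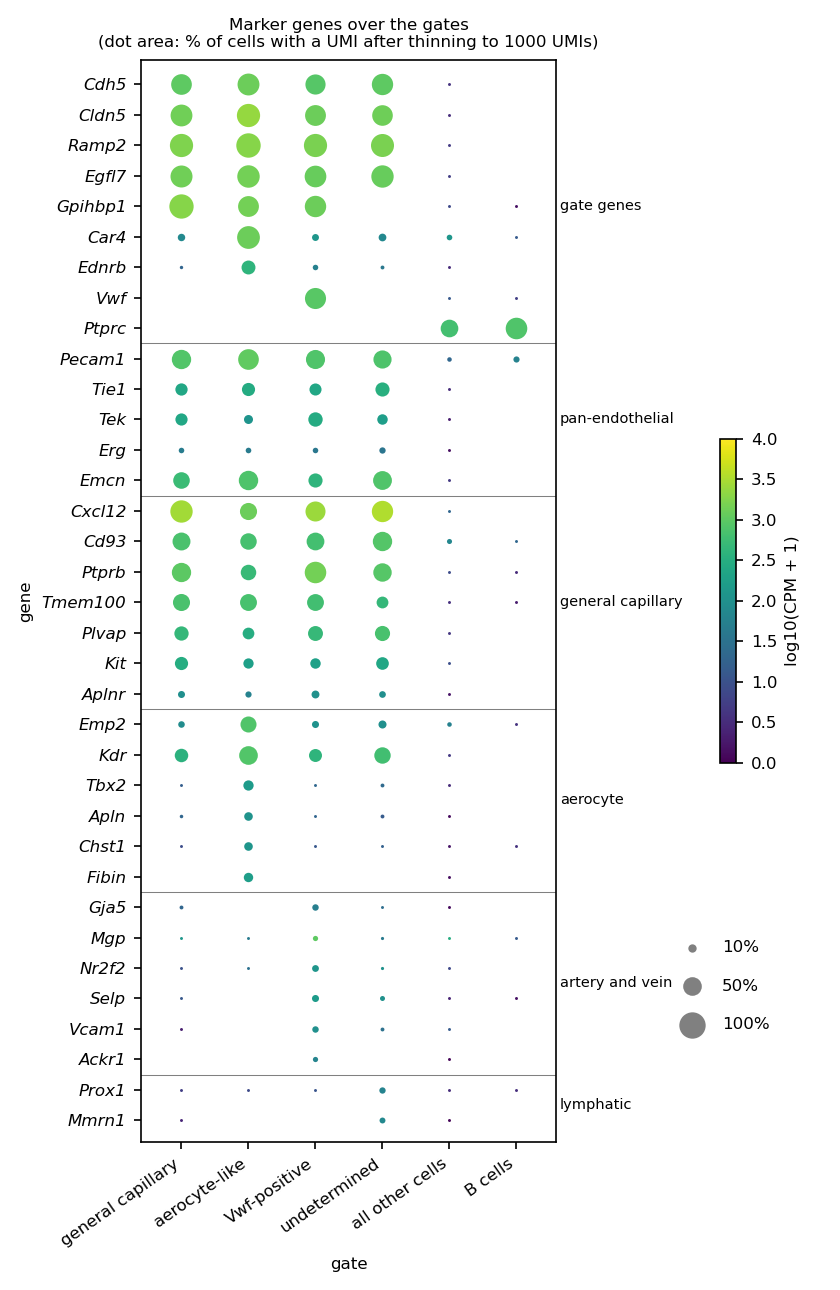
Marker genes (rows) over the gates (columns), with B cells as the gauge of free RNA. Dot area is the percentage of cells with a UMI after thinning to 1000 UMIs and color is log10(CPM + 1). Endothelial genes fill the 4 endothelial gates and are near empty in all other cells and B cells, while aerocyte and vein genes separate the gates.

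The values used by the rule are given as a description. The 4-gene sum had a median of 10 UMIs (4 to 63), with 56 members at 4, and Gpihbp1 a median of 3 UMIs (1 to 29), with 166 members at 1. Car4 and Ednrb together were at 0 in 697 members and at 1 in 161. Cells just across the first 3 limits were close to those just inside in their general capillary genes. The summed level was 7196 CPM in the 56 members with a sum of 4 and 6764 CPM in the 48 cells with a sum of 3. They had 6881 CPM in members with 1 Gpihbp1 UMI and 7096 CPM in the 178 cells with none. They had 5496 CPM in the 161 members with 1 Car4 or Ednrb UMI and 5368 CPM in the 75 cells with 2, and 7755 CPM in the 163 cells excluded by a single Vwf UMI alone. Of cells kept out by other limits, 380 of the 460 Vwf-positive cells and 152 of the 202 aerocyte-like cells also had a Gpihbp1 UMI. For the Ptprc and mitochondrial limits, 13 and 3 cells lay just outside.

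Against all other cells, general capillary cells were set apart by endothelial signalling, transport and transcription factor genes. Of 6996 genes at 20 CPM or more on either side, 1166 (16.7%) were at least 2-fold higher in the members and 980 (14.0%) at least 2-fold lower, counted on CPM + 10, with a median log2 ratio of 0.16 over all genes. With TMM scaling, which shifts the median of all genes by -0.34, the counts were 944 and 1325. All 20 pan-endothelial genes, all 8 tested general capillary genes and 16 of 18 endothelial transcription factors were at least 2-fold higher. Sox17, a transcription factor of arterial and capillary endothelium, had 562 CPM against 1.69 CPM, Tmem100, a BMP9 target, 712 against 2.59 CPM, and Scn7a, a sodium channel gene, 1118 against 4.93 CPM. Calcrl, the receptor that pairs with RAMP2 to bind adrenomedullin, had 1852 against 18.7 CPM, and Aqp1, the water channel of lung capillaries, 952 against 6.13 CPM. Genes of macrophages, neutrophils and B cells stood at the other end. Chil3 had 65.9 against 6607 CPM, Ctss 14.4 against 1088 CPM and Igkc 49.1 against 2451 CPM.

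Genes known as interferon-inducible stood high in members. Of 14 such genes tested, 10 were at least 2-fold higher than in all other cells. Ifitm3, a membrane protein that limits virus entry, had 3707 against 342 CPM. Ly6a, the Sca-1 antigen, had 2198 against 69.5 CPM and Ly6c1 1414 against 33.9 CPM. These levels were shared by the endothelium, since the 14 genes summed to 11294 CPM in members, 12090.0 CPM in aerocyte-like cells and 11379 CPM in Vwf-positive cells. MHC class I genes, which present peptides of the cell itself, had 4441 CPM in members and 4231 CPM in all other cells, with 0 of 8 past 2-fold either way, and the sign of the log2 ratio turned to -0.27 with TMM factors.

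The comparison with aerocyte-like cells asks how the general capillary cells differ from their partners in the capillary wall. Cxcl12, the chemokine that binds CXCR4, was higher in the members at 2821 against 1278 CPM, log2 1.14 (1.03 to 1.26). Genes known from aerocytes were lower, and the MHC class II genes were higher. Of 6508 genes tested, 43 (0.661%) were at least 2-fold higher in the members and 133 (2.04%) at least 2-fold lower, and the median over all genes was -0.07.

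General capillary genes summed to 6579 CPM (6459 to 6701) in members and 4180.5 CPM (4015 to 4351) in aerocyte-like cells, log2 0.65 (0.59 to 0.72). Of 8 tested, 1 was at least 2-fold higher, with a median log2 of 0.60. Ptprb, a phosphatase that restrains TIE2, had 985 against 491 CPM, log2 1.00 (0.82 to 1.19), just under the fold limit on CPM + 10. Kit had 298 against 182 CPM, log2 0.71 (0.40 to 1.02), and Plvap, which forms the diaphragms of fenestrae and caveolae, 465 against 307 CPM. Aplnr, the apelin receptor, had 93.0 against 57.3 CPM. Cd93, Tmem100 and Sema3c differed little between these gates, at log2 0.12, 0.065 and -0.10. Within the members, the same list was lower in deeper cells, at 8238 CPM in the shallowest 286 and 5376 CPM in the deepest 286. Aerocyte-like cells were deeper at the median. The log2 ratio was 0.81 when gates were set on thinned cells, where the aerocyte-like gate went from 202 to 95 cells. Levels were still summed at full depth there, so depth stayed unequal in this ratio.

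Cxcl12 was seen in 71.9% of thinned members (81.0% unthinned) and 42.1% of thinned aerocyte-like cells, and in 0% of thinned B cells (exact upper limit 0.449%). Its 4882 UMIs came from 695 members, and the top 10 members held 7.56% of them, so the level did not rest on a few cells. Edn1, which encodes the vasoconstrictor endothelin-1, had 311 against 146 CPM, log2 1.09 (0.76 to 1.44), while the aerocyte-like gate was chosen in part on its receptor gene Ednrb. Vegfa had 179.7 against 72.9 CPM and Tek, which encodes TIE2, 239.8 against 115 CPM. Among the 15 genes ranked highest against aerocyte-like cells, Ccl4, Il1b, S100a8, Apoe and Mgp had large shares of their UMIs in single members. Ccl4 had 75 of its 88 UMIs in 1 member, S100a8 97 of 199, Apoe 103 of 212 and Mgp 142 of 225, and Il1b had 30 of 89.

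All 10 aerocyte genes had a ratio below 0 and 8 were at least 2-fold lower, with a median log2 of -1.88. They summed to 1523 CPM against 4033 CPM, log2 -1.41 (-1.49 to -1.32). Fibin, a secreted protein gene of aerocytes, had 0 UMIs in all 858 members, which allows up to 2.13 CPM, and 165 CPM in aerocyte-like cells. Emp2, a tetraspan membrane protein of thin alveolar cells, had 84.4 against 781 CPM, log2 -3.21 (-3.49 to -2.94). Tbx2, a T-box transcription factor, had 13.9 against 149 CPM, and Apln, the apelin ligand whose receptor gene stood higher in members, 19.1 against 113 CPM. Kdr, the main VEGF receptor, had 363 against 809 CPM, and its co-receptor Nrp1 450.1 against 826 CPM. Kitl, which encodes the ligand of KIT, had 244 against 778 CPM, log2 -1.67 (-1.87 to -1.48). In these 2 ligand and receptor pairs, which were set side by side after their values were seen, the receptor genes Kit and Aplnr were higher in general capillary cells and the ligand genes Kitl and Apln in aerocyte-like cells. Hopx, an alveolar type I gene, had 34.7 against 199.7 CPM. Marker genes of other cell types summed to 1438 CPM in members and 2314 CPM in aerocyte-like cells (alveolar type II genes 957 and 1729 CPM, pericyte genes 6.93 and 50.3 CPM), and their part in these ratios was not tested. Without cells that held 3 or more such UMIs, the log2 ratio of the aerocyte genes was -1.46.

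**Figure D2:**
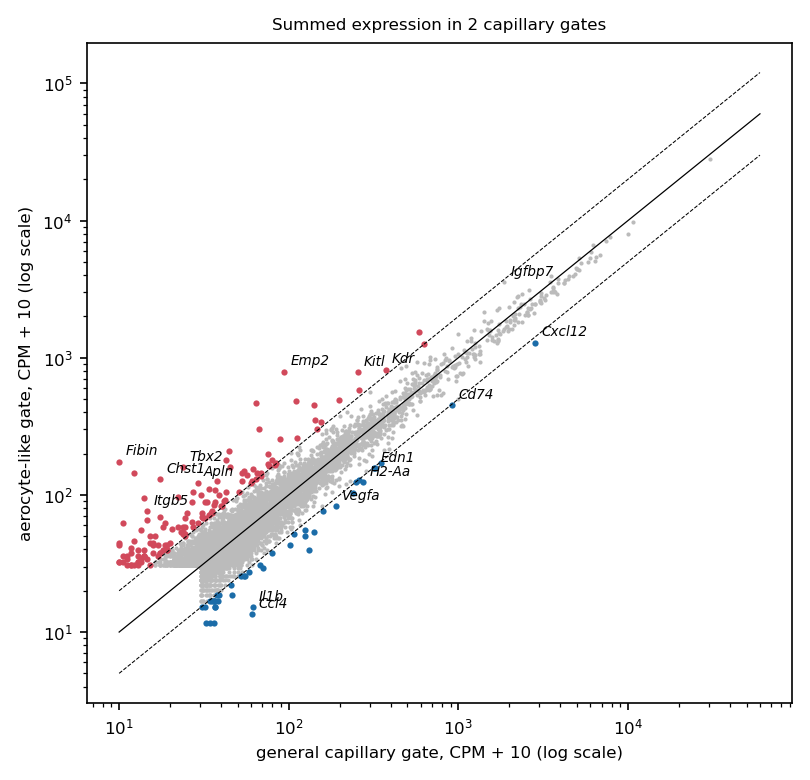
Summed expression of each tested gene in the general capillary gate (x axis, CPM + 10, log scale) against the aerocyte-like gate (y axis, CPM + 10, log scale), 1 point a gene. The solid line marks equal levels and the dashed lines a 2-fold difference, with genes past it in blue (higher in general capillary cells) or red (lower). Cxcl12, Edn1, H2-Aa and Cd74 lie on the general capillary side of the diagonal, and Fibin, Emp2, Kitl and Kdr on the aerocyte-like side.

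MHC class II genes, which present peptides to CD4 T cells, were higher in general capillary than in aerocyte-like cells. Of 7 tested, 4 were at least 2-fold higher with a median log2 of 1.02, and they summed to 1844 CPM against 878 CPM, log2 1.07 (0.93 to 1.21). Cd74, the invariant chain, had 910.1 against 443 CPM, and H2-Aa had 265 against 115 CPM. These genes are abundant in free RNA here. H2-Aa was seen in 18.1% of thinned members, 10.2% of aerocyte-like cells, 5.48% of T cells and 12.9% of neutrophils, which should lack it, and Cd74 in 36.1%, 20.3%, 10.4% and 22.0%. The T cell gate held 2627 cells with a median of 1812 UMIs and the neutrophil gate 1378 cells with a median of 973. Of these, 2501 and 658 cells reached the thinned depth. Shares in aerocyte-like cells lay above those in T cells and at or below those in neutrophils, so they are not told apart from background. Shares in members were above those in both. The 33 thinned members with 5 or more Cd74 UMIs had higher levels of some other-cell-type markers than the 505 with none, at 421 against 45.0 CPM of macrophage genes, 272 against 4.79 CPM of B cell genes and 544 against 186 CPM of alveolar type II genes, while neutrophil genes had 67.9 against 316 CPM. Without cells that held 3 or more UMIs of other cell types the log2 ratio of the class II genes over aerocyte-like cells was 0.86, and without Scrublet doublets it was 0.89. In all other cells the class II genes reached 18360.0 CPM, and 9 of 10 were at least 2-fold lower in the members.

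**Figure D3:**
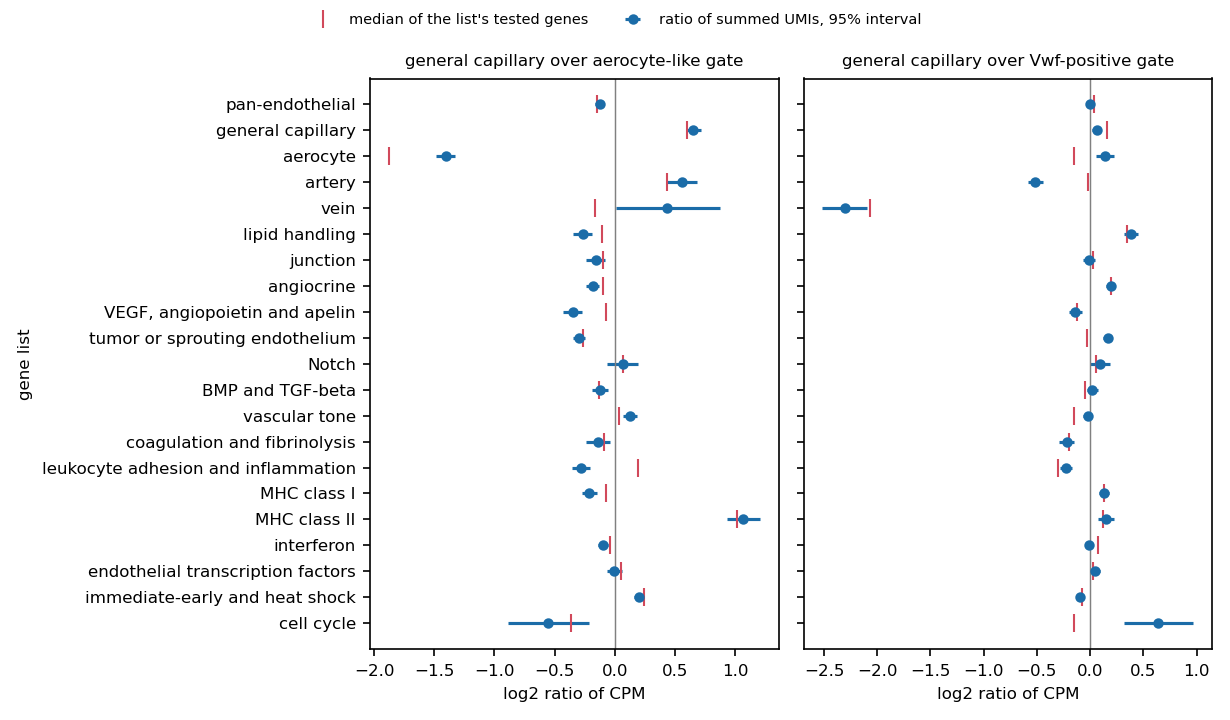
Log2 ratio of summed CPM for each gene list (rows), general capillary over aerocyte-like cells (left) and over Vwf-positive cells (right). Points are ratios of summed UMIs with 95% counting intervals and red ticks the median of the tested genes of a list. Aerocyte genes lie far to the left against aerocyte-like cells and vein genes against Vwf-positive cells, while pan-endothelial genes sit near 0 in both.

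The comparison with Vwf-positive cells sets the members against cells with a gene of larger vessels. Of these 460 cells, 380 also had a Gpihbp1 UMI and 205 had only 1 Vwf UMI. The gate is therefore not read as larger-vessel endothelium alone. Vein genes were lower in the general capillary cells and the summed lipid handling genes were higher. Of 6400 genes tested, 8 (0.125%) were at least 2-fold higher in the members and 127 (1.98%) at least 2-fold lower, with a median of -0.0090 over all genes. Vein genes were at least 2-fold lower in 8 of 9 cases, with a median log2 of -2.07, and summed to 136 against 670.3 CPM, log2 -2.30 (-2.52 to -2.10). Nr2f2, the transcription factor that sets vein identity, had 9.25 against 119.6 CPM. Selp, which encodes the leukocyte-rolling receptor P-selectin, had 11.6 against 152 CPM, and Vcam1 had 2 UMIs in all members against 98.7 CPM. Ackr1, the chemokine scavenger of venules, had 0 UMIs against 61.9 CPM. Icam1, which holds leukocytes firmly, was measured at 192 against 384 CPM. The lymphatic growth factor gene Vegfc had 61.8 against 207 CPM.

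Artery genes were at least 2-fold lower in 4 of 12 cases and summed to 1683 against 2406 CPM, log2 -0.52 (-0.59 to -0.44). This sum rested on Mgp, an inhibitor of calcification, at 130.0 against 1026 CPM. When cells above the 98th percentile of genes per cell were left out, the ratio of the artery genes became 0.063 and that of Mgp 0.076, so no direction is drawn from them. Gja5, which encodes the arterial connexin 40, had 19.1 against 50.8 CPM, while Sox17 was higher in members at 562 against 389 CPM.

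Lipid handling genes summed to 2583 CPM in members and 1979 CPM in Vwf-positive cells, log2 0.38 (0.32 to 0.45), and 5 of 6 tested had a ratio above 0 with 1 past 2-fold. Cd36, the fatty acid translocase, had 1731 against 1275 CPM and was seen in 74.3% against 60.5% of thinned cells. Fabp4 had 116 against 41.7 CPM, log2 1.48 (1.05 to 1.92), and Fabp5 251 against 169 CPM. Both encode cytosolic fatty acid carriers. The 201 Fabp4 UMIs lay in 37 of 858 members, and the top 10 members held 66.7% of them. Lpl, whose protein GPIHBP1 anchors, was itself measured at 187 CPM in members, 106 CPM in aerocyte-like cells and 225 CPM in Vwf-positive cells. Against aerocyte-like cells the lipid list had the opposite sign, log2 -0.27 (-0.34 to -0.19).

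General capillary genes themselves did not separate members from Vwf-positive cells, at 6579 against 6303 CPM, log2 0.062 (0.022 to 0.10), and the sign turned under 4 alternatives. Kit was measured at 298 against 184 CPM and Ptprb at 985 against 1418 CPM, in opposite directions. Markers of other cell types were higher in the Vwf-positive gate, with red cell genes at 13.3 against 1062 CPM, alveolar type II genes at 957 against 3689 CPM and fibroblast genes at 80.9 against 313 CPM, and their part was not tested. Undetermined cells resembled members in general capillary genes (7096 CPM) and differed in vein genes (383 against 136 CPM) and in the lymphatic genes Prox1 (60.6 against 4.62 CPM) and Mmrn1 (73.4 against 1.73 CPM).

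Other roles of the capillary wall were read as levels over the members. Among genes of vascular tone, Ace, which makes angiotensin II, had 1171 CPM in members, 1309 CPM in aerocyte-like cells and 994 CPM in Vwf-positive cells. Klf2, the transcription factor induced by flow, had 1568, 1399 and 1649 CPM in the same order. Thbd, which encodes the anticoagulant thrombomodulin, had 508, 585 and 573 CPM. The prostaglandin genes Ptgs1 (9.82 against 67.4 CPM), Ptgs2 (4.62 against 74.4 CPM) and Ptgis (2.89 against 45.2 CPM) were lower in members than in Vwf-positive cells. Of 20 endothelial transcription factors tested against aerocyte-like cells, 4 were at least 2-fold lower and none higher, with Tbx3 at 144 against 332 CPM and Meox1 at 50.8 against 116 CPM. Erg and Fli1 stood at 45.1 and 111 CPM in members, 43.4 and 90.3 CPM in aerocyte-like cells and 37.5 and 117 CPM in Vwf-positive cells. Of 10 Notch genes, which guide arterial fate, none passed 2-fold against either gate, and nothing is read from this beside the shares of all genes (0.661% higher and 2.04% lower against aerocyte-like cells, 0.125% and 1.98% against Vwf-positive cells).

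The Cre reporter was read against free RNA. TdTomato had 171 CPM in members and was seen in 13.4% of them after thinning (22.6% unthinned), against 8.55% of B cells, 12.9% of T cells and 16.7% of neutrophils, so the share is read as background. GFP of the trapped allele had 1 UMI over all members, and Stk11 had 17.9 CPM.

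Among themselves, the 790 thinned members differed most in genes of other cells and in a small set of endothelial genes. Over 3065 genes the variance over the mean of UMIs per cell, which is 1 for counting error alone, had a median of 1.04, and 29 genes reached 2. Sftpc (40.9), a surfactant gene, and S100a8 (29.3), a neutrophil gene, led the order, and 782 of the 1063 Sftpc UMIs lay in 1 member. Of the 858 members, 40 (4.66%) had at least 2 alveolar type II genes, 9 at least 2 neutrophil genes and 7 at least 2 macrophage genes. Among endothelial genes the spread was widest for Fabp4 (8.52), Igfbp7 (5.70), Cxcl12 (4.96), Igfbp3 (3.54), Rbp7 (2.99), Hpgd (2.99) and Rgcc (2.49). Fabp4 was seen in 29 thinned members and reached 22 UMIs in 1 of them. Cxcl12 had 0 UMIs in 28.1% of thinned members, 57.9% of aerocyte-like and 42.3% of Vwf-positive cells. It had 10 or more UMIs in 6.8, 2.5 and 10.4% of them, so high counts were more frequent in Vwf-positive cells than in members. Class II genes were unevenly spread, with 370 thinned members (46.8%) at 0 and 47.5% of their UMIs in the top 10% of members, and markers of other cell types moved with them as given above.

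**Figure D4:**
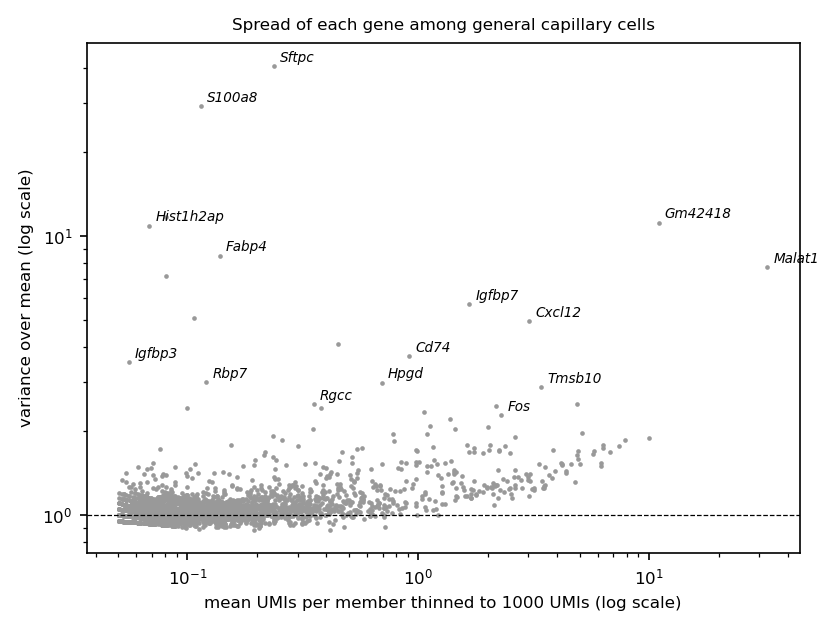
Mean UMIs per thinned member (x axis, log scale) and variance over mean (y axis, log scale), 1 point a gene, over 790 general capillary cells. Most genes lie near 1, the value of counting error alone, and Sftpc, S100a8, Fabp4, Igfbp7 and Cxcl12 rise above it.

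Igfbp7, which encodes a secreted protein of the vessel basement membrane that binds insulin-like growth factors, had one of the widest spreads. It also led the positive end of the third principal component, which took 1.08% of the variance, with Cxcl12, Ly6a, Ptprb, Hpgd and Ace at the other end. Members were therefore split on thinned Igfbp7 UMIs, a choice made after the values were seen, so the following values are descriptive. Of 790 thinned members, 445 (56.3%) had 0, 242 (30.6%) had 1 to 4 and 103 (13.0%) had 5 or more, at median depths of 1828, 1981 and 2098 UMIs. Levels of several lists also moved with depth, as given at the end, and the part of depth in the orders below was not tested. Igfbp7 was seen in 0.244% of thinned B cells, 1.00% of T cells and 0.760% of neutrophils, all far below the 43.7% of thinned members.

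Members with 5 or more Igfbp7 UMIs had the highest levels of the carrier genes Fabp4 and Rbp7, of Esm1, Plvap, Kdr and Angpt2, and of basement membrane genes. In the order 0, 1 to 4 and 5 or more Igfbp7 UMIs, Fabp4 had 7.85, 111 and 567 CPM. Rbp7, a retinol-binding protein gene of microvessels, had 23.5, 92.6 and 541 CPM and was seen in 1.80, 5.79 and 27.2% of thinned cells. Igfbp3 had 4.48, 69.0 and 294 CPM. All 3 genes were lowest in members without Igfbp7 and were seen in a minority of the richest group.

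Esm1, a gene of VEGF-stimulated tip cells, had 4.48, 43.6 and 273 CPM over the same groups, and Plvap had 333, 409 and 1112 CPM. Kdr had 272, 336 and 767 CPM and was seen in 20.9, 25.6 and 50.5% of thinned cells. Angpt2, the TIE2 ligand released by activated endothelium, had 2.24, 10.9 and 59.7 CPM. Esm1 and Angpt2 rested on few cells, since 57.6% of the 92 Esm1 UMIs lay in 10 members and the 22 Angpt2 UMIs in 15. Among basement membrane genes, Col4a1 had 1322, 1981 and 2348 CPM, Hspg2 26.9, 119.9 and 315 CPM and Sparc 2112, 2700.5 and 4279 CPM. Rgcc had 189, 387 and 1091 CPM and Meox1 15.7, 50.9 and 188 CPM, and both are known from capillary endothelium. Of the 18 genes of the whole sprouting and tumor endothelium list at 20 CPM or more in any group, 17 were highest in the Igfbp7-rich members, where 36.0% of 6811 such genes over the matrix were. That list summed to 5288, 7460.5 and 11533 CPM. The aerocyte list, which holds Kdr and Rgcc, also rose, at 1147, 1502 and 2903 CPM. Of its 8 genes at 20 CPM or more, 5 were highest in the Igfbp7-rich members and 2 in members without Igfbp7.

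The opposite order was found for Hpgd and for part of the vascular tone and general capillary lists. Hpgd, which breaks down prostaglandins, had 982, 279.7 and 17.0 CPM and was seen in 48.3, 18.2 and 1.94% of thinned cells. Edn1 had 377, 212 and 72.5 CPM, Lpl 261, 109 and 38.4 CPM and Ntrk2, which encodes the BDNF receptor, 536, 278 and 59.7 CPM. Ptprb had 1162, 819 and 413 CPM, Ace 1391, 988 and 507 CPM and Calcrl 2349, 1362 and 882 CPM. Kit had 337, 296 and 158 CPM and Tmem100 926, 514 and 264 CPM, while Plvap, Aplnr and Cd93 of the same list were highest at the Igfbp7-rich end. In all, 5 of 8 general capillary genes and 7 of 10 vascular tone genes were highest in members without Igfbp7, as were 37.2% of all genes. The general capillary list summed to 7061, 5982 and 5566 CPM and the vascular tone list to 7371, 5278 and 3521 CPM. H2-Aa had 363, 194 and 63.9 CPM and was seen in 22.7, 15.7 and 3.88% of thinned cells, the last of which lies below the share in T cells.

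Pecam1, which encodes the junction protein CD31, had 792, 821 and 776 CPM and Cd36 1823, 1711 and 1321 CPM. Cxcl12 was seen in 73.0, 73.6 and 63.1% of thinned cells. Of the genes used by the rule, Gpihbp1 had 1927, 1771 and 1688 CPM while Cldn5, a tight junction gene, had 1616, 1126 and 597 CPM. Sftpc had 981, 113 and 520.0 CPM, with no order. Markers of other cell types together had 2016, 699 and 1074 CPM, with alveolar type II genes at 1463, 225 and 848 CPM and fibroblast genes at 11.2, 225 and 21.3 CPM, and their part in these orders was not tested.

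**Figure D5:**
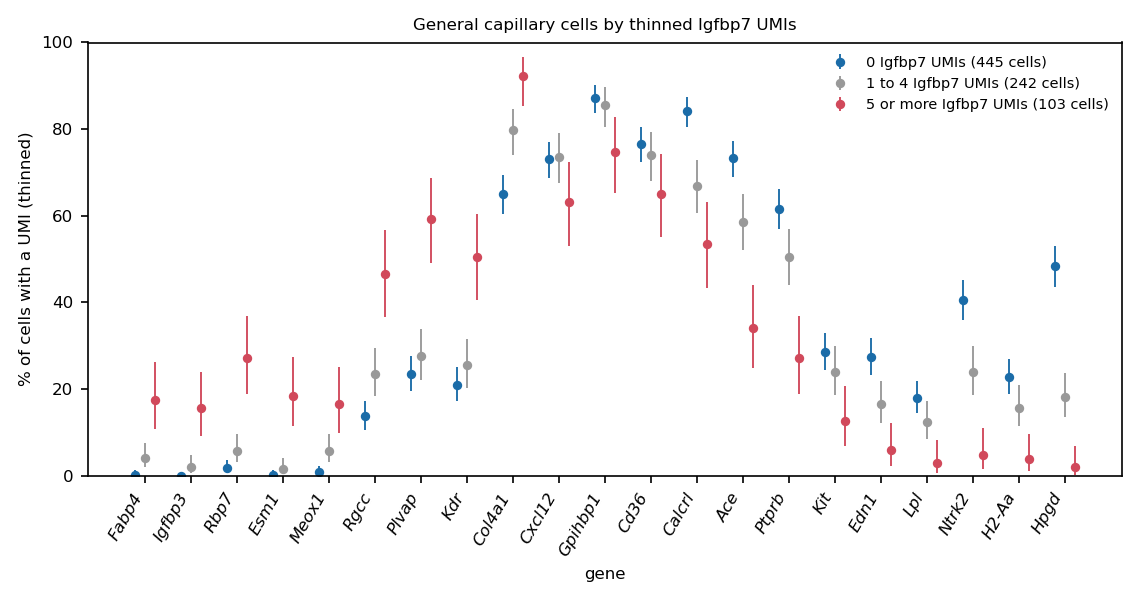
Percentage of thinned general capillary cells with a UMI of each gene (x axis) in 3 groups by thinned Igfbp7 UMIs (0, 1 to 4, and 5 or more, with 445, 242 and 103 cells). Points are shares with exact 95% intervals for counting error. Fabp4, Igfbp3, Rbp7, Esm1, Plvap and Kdr are highest in cells with 5 or more Igfbp7 UMIs, and Hpgd, Edn1, Ntrk2, Lpl and Ptprb in cells with none. The intervals of Cxcl12 overlap.

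The same split was made in the other gates. Among 433 thinned Vwf-positive cells, 295 (68.1%), 92 and 46 fell in the groups, where Hpgd had 951, 513 and 86.3 CPM, Plvap 379, 403 and 1010.3 CPM, Kdr 210.1, 496 and 1020.4 CPM and Ptprb 1648, 1144 and 660.0 CPM, in the order seen in members. Among 197 thinned aerocyte-like cells, 43 (21.8%), 89 and 65 fell in the groups, where Hpgd had 911, 342 and 658 CPM and Fabp4 14.8, 124 and 27.9 CPM, without that order, while Kdr had 363, 738 and 1182 CPM and Edn1 259, 148 and 50.2 CPM. Igfbp7 itself was higher in aerocyte-like cells, at 3533 against 1861 CPM in members, a log2 ratio of members over aerocyte-like cells of -0.93 (-1.01 to -0.84).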

How the data were processed

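The authors dissociated the tumors of the 4 mice, sorted viable cells on DAPI alone and made droplet 3′ libraries. An allele that all 4 mice shared and 1 gene are not reported here. Reads were aligned to mm10 with GFP and TdTomato added, and the authors deposited raw UMI counts, with Cell Ranger 3.0.2 in the file header. The mice share 1 matrix of 31055 features, 52 of its cells had under 200 genes, and 0 columns belonged to another series. Whether libraries were brought to equal depth on joining was not given in the sources used here.

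Gates used raw counts. The limit of 13.4% is the 98th percentile of the mitochondrial share. The study's upper limit on features and its removal of tdTomato-positive cells outside the epithelium were not applied, and doublets were kept. Scrublet (scanpy 1.11.5) called 181 of 20299 cells (0.892%), 9 of them members, and the pooled matrix mixes libraries, which it does not model. B cells had at least 2 Cd79a UMIs, T cells at least 2 over 3 Cd3 genes and neutrophils at least 20 over S100a8 and S100a9, all with Ptprc and a 4-gene sum of 0.

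UMIs were summed per gate (Python 3.11.15, numpy 2.4.6, scipy 1.17.1, pandas 2.3.3), with exact Poisson intervals for levels, Clopper-Pearson intervals for shares and exact conditional intervals for ratios. A gene was tested for a 2-fold difference on CPM + 10 if it had 20 CPM in either gate, outside the 9 gate genes. These intervals were checked on simulated data. TMM factors came from edgeR 4.0.16 (R 4.3.3), as an alternative scaling only. Members and gene lists were chosen with earlier results of these data known. Named genes came from the lists, from the 15 strongest in each direction of a comparison at 50 CPM or more, from the 20 with the widest spread, from the component ends and from the 20 most abundant. Genes named in the split on Igfbp7 outside these were chosen after their values were seen.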

Additional observations from a re-analysis of the deposited data

How the results depend on the processing

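Repeats of the main shares, ratios and counts numbered 102. Of these, 61 stayed close to the main value and 41 moved. Shares and counts cannot change sign, and none of the log2 ratios among these results did. Of 1770 repeats over single lists and genes, 1441 stayed close, 289 moved and 40 changed sign, counted where the main 95% counting interval lay wholly on 1 side of 0. The cause of the moves was not tested. The share of members among filtered cells, 4.31%, was 4.95% with at least 500 genes, 2.95% with a 4-gene sum of at least 8, 3.48% with Gpihbp1 of at least 2, 3.65% with gates set after thinning and 3.94% without cells that held 3 or more UMIs of other cell types, an alternative chosen after seeing the data. Their share of endothelial cells was 40.8% with Gpihbp1 of at least 2 and 53.4% after thinning. In this section, thinning set the gates only, and levels were still summed at full depth.

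Against aerocyte-like cells, the log2 ratio of the general capillary genes was 0.81 after thinning, 0.75 as a mean of per-cell CPM, 0.76 with edgeR TMM factors and 0.56 without cells holding UMIs of other cell types. That of the aerocyte genes was -1.58 with an upper limit at the 98th percentile of genes, -1.51 with a 4-gene sum of at least 8, -2.14 after thinning, -1.73 as a per-cell mean and -1.30 with TMM. Against Vwf-positive cells, that of the artery and vein genes was -0.36 with the upper limit, -0.40 after thinning, -0.46 as a per-cell mean and -0.44 without cells holding UMIs of other cell types. TMM factors shifted all genes by 0.11 against aerocyte-like cells, 0.034 against Vwf-positive cells and -0.34 against all other cells, where the higher share of the genes past 2-fold went from 54.3% to 41.6%.

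Counts past 2-fold depended on how low levels were treated. For higher and lower genes against aerocyte-like cells (43 and 133) they were 269 and 398 after thinning, 115 and 265 with a pseudocount of 1 CPM, 2 and 28 with 50 CPM, and 22 and 77 among genes at 50 CPM or more, and 69 were higher as a per-cell mean. Against Vwf-positive cells (8 and 127) they were 17 and 78 with the upper limit, 13 and 77 as a per-cell mean and 1 and 36 with a pseudocount of 50 CPM. The higher count was also 5 with Gpihbp1 of at least 2, 38 after thinning, 2 without Scrublet doublets and 26 with a pseudocount of 1 CPM, and the lower count 67 at 50 CPM or more and 78 without cells holding UMIs of other cell types. With TMM the counts against aerocyte-like cells were 54 and 106.

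The following log2 ratios, whose main interval lay on 1 side of 0, changed sign. Lists whose main interval spanned 0 are given no direction, and some of these also crossed 0, with Notch genes reaching -0.13 after thinning and BMP and TGF-beta genes -0.13 as a per-cell mean against Vwf-positive cells, and endothelial transcription factors 0.11 with TMM against aerocyte-like cells. With the upper limit, general capillary genes reached -0.058, artery genes 0.063, Mgp 0.076, Sftpd 0.19, Sftpa1 0.59, Ibsp 0.31 and Apod 0.083 against Vwf-positive cells, and Ibsp 0.31 and Apod 0.083 against aerocyte-like cells. After thinning, sprouting genes reached 0.088, vascular tone genes -0.023, cell cycle genes 0.60, Ccl4 -0.17, Ibsp 3.41 and Apod 1.72 against aerocyte-like cells. Against Vwf-positive cells, thinning gave general capillary genes -0.20, Il1b -2.01, S100a9 -0.55, Cxcl2 -1.22, Hbb-bs 6.31, Ibsp 3.41, Hba-a1 4.65, Hba-a2 3.89, Hbb-bt 3.37, Sftpd 0.25, Apod 1.72 and Sftpa1 0.50. Ccl4 over aerocyte-like cells was -0.078 with Gpihbp1 of at least 2 and -0.058 without Scrublet doublets. As a per-cell mean, general capillary genes were -0.14 against Vwf-positive cells. With TMM, interferon genes were 0.010 against aerocyte-like cells, and coagulation genes -0.074 and MHC class I genes -0.27 against all other cells. Without cells holding UMIs of other cell types, general capillary genes were -0.058, Apoe -0.081, Hbb-bs 0.046, Sftpd 0.48 and Sftpa1 0.18 against Vwf-positive cells, and Apoe -0.097 and S100a8 -0.32 against aerocyte-like cells.

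No paired analysis was possible because cells carry no mouse and the labels give no replicate numbers, and leaving out each mouse in turn was not run for the same reason. At a median of 1836 UMIs a member, genes near 1.73 CPM over the gate and most single-cell absences lie within counting error.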

Other observations

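Few general capillary cells carried cell cycle genes. Of 858 members, 767 had no UMI over 12 such genes, 9 (1.05%) had at least 3, and 1 had 37. The 9 members, chosen after their values were seen, had a median of 4157 UMIs, against 1822 in members with none. They had 6323 CPM of the histone gene Hist1h2ap against 7.98 CPM in the 767 with none, and 501 CPM of the topoisomerase gene Top2a. Top2a was at 0 UMIs in those 767 by the split, since it belongs to the list. Whether these cells hold more than 1 cell each was not tested.

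Members were also split on Cxcl12 and on Fabp4, again after the values were seen. The 188 thinned members with 5 or more Cxcl12 UMIs had 444 CPM of Edn1 against 152 CPM in the 222 with none, 1388 against 692 CPM of Ptprb and 1512 against 861 CPM of Ace. Aplnr ran the other way, at 38.4 against 179 CPM. The 27 members with 2 or more Fabp4 UMIs had 1062 CPM of Rbp7 against 73.2 CPM in the 821 with none, 441 against 43.3 CPM of Igfbp3, 4524 against 2762 CPM of Cxcl12 and 16.3 against 669 CPM of Hpgd, while Gpihbp1 had 1862 against 1891 CPM and Cd36 1780.2 against 1735 CPM. Macrophage genes had 425 against 86.0 CPM in the same split, with 25 of their 26 UMIs from Chil3, and their part was not tested.

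Levels moved with the depth of a member. In the shallowest, middle and deepest 286 members, general capillary genes had 8238, 7459 and 5376 CPM, pan-endothelial genes 13568, 11523 and 9673 CPM, and sprouting genes 5952, 6322 and 7481 CPM. Vascular tone genes had 7720, 6779 and 5340 CPM. General capillary, vascular tone and sprouting genes moved in the same direction over the Igfbp7 groups, where the part of depth was not tested. MHC class II genes were level at 1783, 1779.8 and 1909 CPM.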
